A study of Homo sapiens with 21 samples.

Results

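The respiratory chain genes are the rows of the calibrated expression table whose symbols name subunits of complexes I to IV, together with the mitochondrially encoded subunits of complexes I, III, IV and V. The symbol patterns found 88 of 57820 rows. Of these, 13 are the protein genes of mitochondrial DNA (7 of complex I, 1 of complex III, 3 of complex IV and 2 of ATP synthase), 64 are nuclear genes (37 of complex I, 4 of complex II, 9 of complex III and 14 of complex IV), and 11 are pseudogenes of complex III genes. Expression was high enough to test in all 13 mitochondrial genes, in 60 nuclear genes and in 1 pseudogene. Membership used the symbols alone and no measured value.

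The respiratory chain passes electrons from NADH (complex I) or succinate (complex II) through complex III to complex IV, which reduces oxygen, and the proton gradient it builds drives ATP synthase. Complex II is wholly nuclear encoded, whereas complexes I, III, IV and ATP synthase are assembled from subunits made in the cytosol and subunits made inside the mitochondrion. The mitochondrial genes are transcribed by their own polymerase as long precursors from both strands of a small circular genome and are cut into single RNAs at the transfer RNAs between them, so their levels are set apart from those of the nuclear genes.

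Total RNA was sequenced from NLF, a neuroblastoma cell line, after removal of ribosomal RNA, in 21 libraries that form 7 groups of 3. YAPKO2 and YAPKO1 are lines in which YAP1, a transcriptional coactivator of the Hippo pathway, was targeted with Cas9 and a guide; sgCON carries Cas9, delivered by lentivirus, with a scrambled guide; parental NLF cells carry none of these. The knockout lines and sgCON were each grown for 72 h with 20 nM trametinib, which blocks the kinases MEK1 and MEK2, or with its solvent DMSO, and the parental cells are labelled with DMSO alone. Whether each line is a clone or a pool is not stated, and nothing says that the 3 replicates of a group were separate cultures. The p-values reflect the spread among libraries within groups, pooled over all 7 groups and not that of the groups compared alone. That spread may be technical. The guides are shown because they define the lines that are compared.
YAPKO2 guide: gtgcacgatctgatgcccgg
YAPKO1 guide: cgccgtcatgaaccccaaga
sgCON guide: gcactcacatcgctacatca

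Levels are FPKM (fragments per kilobase of transcript, relative to library size) scaled between libraries, given per library in replicate order or as mean ± SD with n = 3. Changes are log2 ± SE of the scaled FPKM plus 0.5 from limma over 16194 genes, and a gene was called where its p, adjusted by Benjamini-Hochberg over all genes, was under 0.05. YAP1 RNA was 2.89 ± 0.256 in YAPKO2 and 11.7 ± 2.30 in YAPKO1 in DMSO, against 25.6 ± 1.88 in sgCON. FPKM carry no read counts, and relative depth estimated from low values was 0.776 to 1.68 of that of parental replicate 1. Of the neuroblastoma lineage markers, HAND2 was at 61.0 to 101 in all libraries, while TH, the first enzyme of catecholamine synthesis, was at most 0.514; the leukocyte gene PTPRC was at most 0.285. The libraries differed in the representation of GC-rich against GC-poor genes, from -0.59 (log2) in parental replicate 1 to 1.33 in YAPKO2 trametinib replicate 2, and YAPKO1 DMSO replicate 3 (0.67) stood above the other replicates of its group. A correction for GC content and length was tried on the chain members. Its value stands beside each named call of a member that it ends or moves by over 1.5 times. Calls of genes outside the chain members were not run with it or with the other alternatives.

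The 13 mitochondrial genes differed widely in level. MT-CO3, a core subunit of complex IV, averaged 3266 FPKM over the 21 libraries, and the other complex IV core subunits MT-CO2 and MT-CO1 averaged 1138 and 1128. The complex I subunit MT-ND3 averaged 708. The other 9 averaged between 28.9 (MT-ND6) and 182 (MT-ATP6). MT-ND6 is the protein gene on the opposite strand to the other 12; whether strand was used in counting is not given in the sources used here. MT-ATP8 overlaps MT-ATP6 and MT-ND4L overlaps MT-ND4 on mitochondrial DNA, so each such pair may share reads. Among tested nuclear members the highest mean was 885 FPKM, for the complex III hinge protein UQCRH, and the lowest was 0.676, for COX6B2, the testis form of a complex IV subunit.

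**Figure D1:**
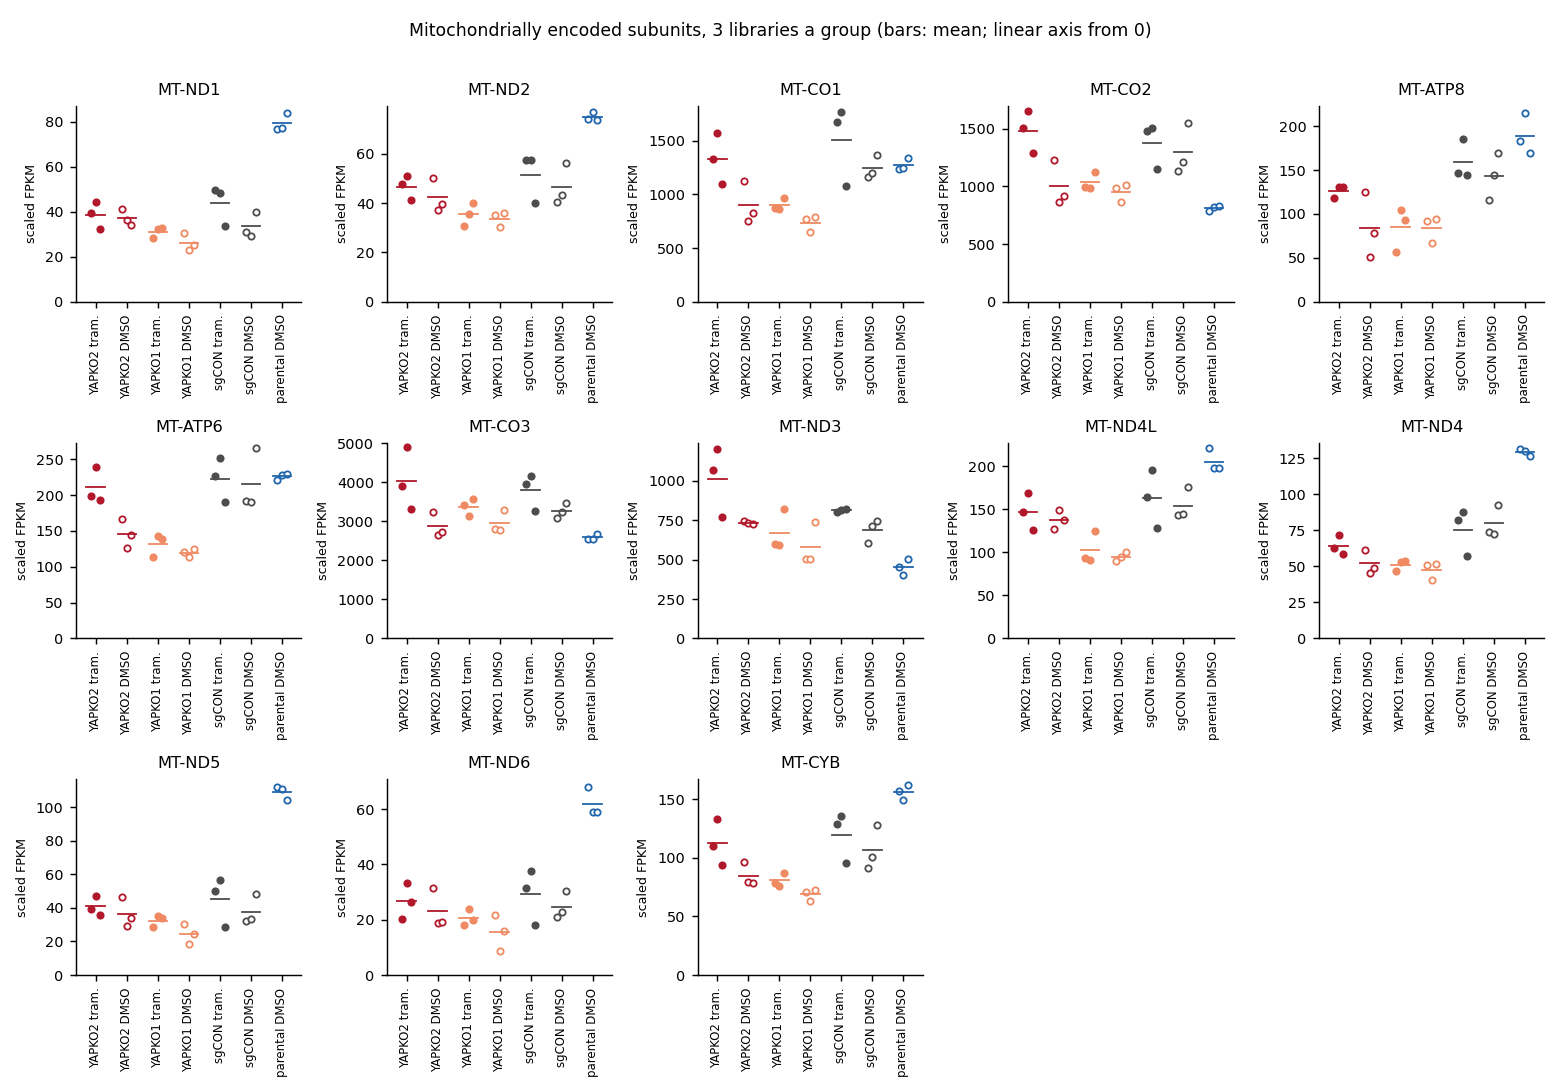
Scaled FPKM (y axis, linear from 0) of the 13 mitochondrially encoded subunits in order along mitochondrial DNA, by group on the x axis; each point is 1 library, filled for trametinib and open for DMSO, and each bar is the mean of 3. MT-ND1, MT-ND5 and MT-ND6 in the sgCON DMSO libraries (20.9 to 48.1) lie below every parental library (59.0 to 112), while MT-CO2 and MT-ND3 lie above.

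Comparing sgCON with parental cells asks what differs between the control line and the cells it was made from, and here the mitochondrial genes moved in both directions. Complex I subunits fell: MT-ND5 to 0.344 of its parental level, MT-ND6 to 0.400 and MT-ND1 to 0.422. MT-CO2 and MT-ND3 rose by 1.58-fold and 1.51-fold. Of 13 genes, 2 rose and 6 fell, where 7.82% of all genes tested were called higher and 7.96% lower.

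MT-ND5, a proton-pumping subunit of complex I, stood at 32.2, 33.2 and 48.1 FPKM in sgCON, against 112, 111 and 104 in parental cells. The groups did not overlap, and the log2 change was -1.54 ± 0.24 (limma adjusted p = 0.000231). MT-ND6 stood at 20.9, 22.9 and 30.6 in sgCON, against 67.9, 59.1 and 59.0 in parental cells (log2 change -1.32 ± 0.30, adjusted p = 0.0058). MT-ND5 and MT-ND6 lie end to end on opposite strands, at 12337 to 14148 and 14149 to 14673 of mitochondrial DNA (chromosome M of GRCh38, GENCODE v29). MT-ND1, at the other end of the coding region, stood at 31.0, 29.3 and 40.1 in sgCON, against 76.8, 77.3 and 84.0 in parental cells (log2 change -1.25 ± 0.16, adjusted p = 3.96e-05). In these 3 genes the highest sgCON library was replicate 3, and it still lay below every parental library.

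MT-ND4, MT-ND2 and MT-CYB, the cytochrome b of complex III, fell by smaller amounts (log2 changes of -0.70 ± 0.16, -0.69 ± 0.16 and -0.56 ± 0.15, limma adjusted p = 0.00465, 0.00602 and 0.016). MT-CO2, which carries the copper centre that accepts electrons from cytochrome c, stood at 1135, 1211 and 1546 FPKM in sgCON, against 788, 823 and 833 in parental cells. MT-ND3 stood at 608, 712 and 745 in sgCON, against 456, 405 and 502 in parental cells. Neither gene's groups overlapped (log2 changes 0.66 ± 0.15 and 0.60 ± 0.17, adjusted p = 0.00507 and 0.0221). The other 5 were not called: MT-CO3 had 0.33 ± 0.13, MT-CO1 -0.04 ± 0.18, MT-ATP6 -0.08 ± 0.14, MT-ATP8 -0.40 ± 0.26 and MT-ND4L -0.42 ± 0.15.

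The summed FPKM of the 13 genes was 7328 ± 725 in sgCON and 6365 ± 161 in parental cells, since the abundant complex IV genes outweigh the complex I genes in the sum. Within a library, MT-ND5 was 1.03% to 1.39% of MT-CO3 in sgCON and 3.90% to 4.38% in parental cells. This ratio needs no scaling between libraries and shows unequal change of the 2 genes. It was 0.967% to 1.08% in YAPKO2 with trametinib, 1.10% to 1.43% in YAPKO2 in DMSO, 0.832% to 1.12% in YAPKO1 with trametinib, 0.662% to 1.08% in YAPKO1 in DMSO and 0.882% to 1.36% in sgCON with trametinib. All 18 libraries of the knockout lines and sgCON thus lay below the 3 parental libraries. Parental cells differ from those lines in lacking Cas9 and a guide. No treatment time is stated for parental cells, against 72 h for the other lines. These differences cannot be told apart.

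**Figure D2:**
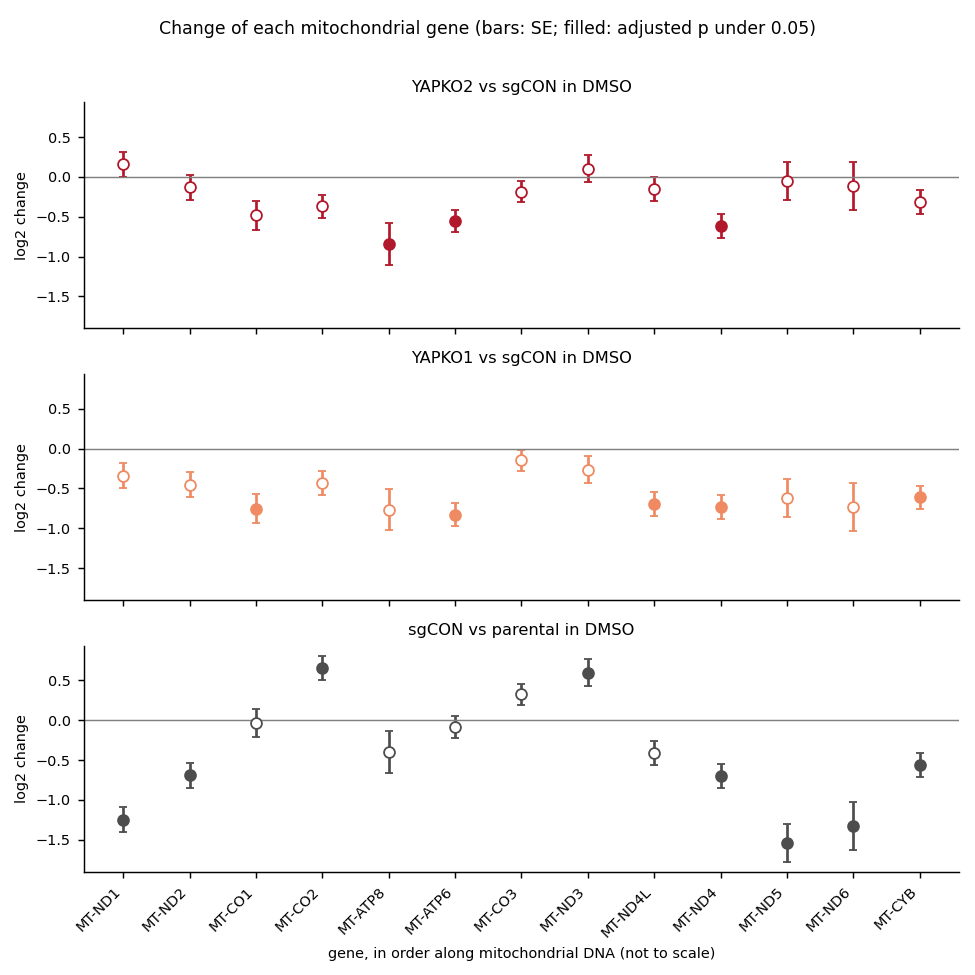
Log2 change ± SE (y axis) of each mitochondrial gene in map order (x axis, not to scale) for YAPKO2 and YAPKO1 against sgCON and for sgCON against parental cells, all in DMSO; filled points have an adjusted p under 0.05. The sgCON panel spans -1.54 (MT-ND5) to 0.66 (MT-CO2), and 13 of 13 values are below 0 in the YAPKO1 panel.

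The calls of MT-ND1, MT-ND2, MT-ND4, MT-ND5, MT-ND6 and MT-CO2 held when any 1 library was left out. That of MT-CYB was lost without parental replicate 3, sgCON replicate 1 or sgCON replicate 2 (adjusted p 0.0598 to 0.0856), and that of MT-ND3 without parental replicates 1 or 2 or sgCON replicates 2 or 3 (0.0572 to 0.0933) and with the correction for GC content and length (0.127).

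Of 60 nuclear members 6 rose and 1 fell in sgCON against parental cells, which is near the share of all genes for rises (10% against 7.82%). The complex IV subunit COX7C stood at 619, 653 and 569 FPKM in sgCON, against 400, 360 and 385 in parental cells. Its groups lay far apart (log2 change 0.68 ± 0.10, limma adjusted p = 0.000124). UQCRH rose by 0.44 ± 0.09 and UQCRHL, a near copy of UQCRH with which it may share reads, by 0.62 ± 0.13 (adjusted p = 0.00301 and 0.00296). COX5A, a complex IV subunit, and NDUFS5, an accessory subunit of complex I, rose by 0.46 ± 0.13 and 0.39 ± 0.10 (adjusted p = 0.0188 and 0.00862). The complex I accessory subunit NDUFB5 fell by 0.36 (-0.36 ± 0.12, adjusted p = 0.0486). On chromosome 3, where NDUFB5 lies, the median over 677 other protein-coding genes tested was also -0.36 in this comparison. A link between these values was not tested.

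The median of the 60 was 0.24, beside 0 for all genes tested, and 47 of 60 values were above 0. With the correction for GC content and length, 21 rose and 1 fell, and the median was 0.24. Shares of all genes called with that correction are not given here, so counts made with it have no background beside them. The call of COX5A was lost without parental replicates 2 or 3 or sgCON replicate 2 (adjusted p 0.0723 to 0.0837), and that of NDUFB5 without any of 5 of the 6 libraries (0.0712 to 0.202; sgCON replicate 2 was the exception) and with that correction (0.229). Complex II gave no call: SDHA (flavoprotein) had 0.34 ± 0.13, SDHB (iron-sulfur subunit) 0.10 ± 0.10, SDHC 0.24 ± 0.15 and SDHD -0.04 ± 0.15, the last 2 being the membrane anchors.

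The knockout lines against sgCON address what changes where YAP1 is targeted. In YAPKO1 the mitochondrial genes were lower, with median log2 changes of -0.62 in DMSO and -0.52 with trametinib. In YAPKO2 these medians were -0.19 and -0.09, and after the GC and length correction 0 of 13 were called at either treatment. Nuclear members tended to be higher in both lines. Both knockout lines share the sgCON libraries, so their values are given side by side and not counted as separate evidence. In DMSO, 0 of 13 mitochondrial genes rose in either line, 3 fell in YAPKO2 and 5 fell in YAPKO1. In YAPKO2 14.2% of all genes tested were called higher and 12.9% lower, and in YAPKO1 6.32% higher and 5.7% lower.

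MT-ATP6, the proton-channel subunit of ATP synthase, stood at 167, 127 and 145 FPKM in YAPKO2 and at 121, 113 and 125 in YAPKO1, against 191, 191 and 266 in sgCON, all in DMSO. Every knockout library lay below every sgCON library (log2 changes -0.56 ± 0.14 and -0.83 ± 0.14, limma adjusted p = 0.00839 in YAPKO2 and 0.000769 in YAPKO1). MT-ND4, a proton-pumping subunit of complex I, stood at 61.6, 45.4 and 49.1 in YAPKO2 and at 51.0, 40.7 and 51.6 in YAPKO1, against 73.9, 72.7 and 92.9 in sgCON. Again no library overlapped (-0.62 ± 0.16 and -0.73 ± 0.16, adjusted p = 0.00758 in YAPKO2 and 0.00456 in YAPKO1).

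MT-CO1, the catalytic subunit of complex IV, stood at 1124, 752 and 824 in YAPKO2 and at 773, 651 and 793 in YAPKO1, against 1161, 1203 and 1365 in sgCON. It was called in YAPKO1 (-0.75 ± 0.18, limma adjusted p = 0.00977), while YAPKO2 had -0.48 ± 0.18. MT-ND4L and MT-CYB were called in YAPKO1 too (-0.69 ± 0.15 and -0.61 ± 0.15, adjusted p = 0.00552 and 0.0121), and MT-ATP8 in YAPKO2 (-0.84 ± 0.26, adjusted p = 0.0258). The remaining values not called ran from -0.37 (MT-CO2) to 0.16 (MT-ND1) in YAPKO2 apart from MT-CO1, and from -0.77 (MT-ATP8) to -0.15 (MT-CO3) in YAPKO1. The median of the 13 was -0.19 in YAPKO2 and -0.62 in YAPKO1.

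GC content moved with these values. With the correction for GC content and length, 0 of 13 fell in YAPKO2 in DMSO (MT-ATP6 -0.30, MT-ATP8 -0.48 and MT-ND4 -0.40, adjusted p = 0.197, 0.187 and 0.108) and 4 of 13 in YAPKO1, where MT-ND4L was lost (-0.48, adjusted p = 0.105). Leaving out 1 library ended the calls of MT-ATP6 in YAPKO2 (without sgCON replicate 3 or YAPKO2 replicate 2, adjusted p 0.0545 and 0.0546), MT-ATP8 in YAPKO2 (without sgCON or YAPKO2 replicates 2 or 3, 0.0628 to 0.167) and MT-CYB in YAPKO1 (without sgCON replicate 3 or YAPKO1 replicate 2, 0.0508 to 0.0755). The calls of MT-ND4 in either line and of MT-ATP6, MT-CO1 and MT-ND4L in YAPKO1 held without any 1 library.

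With trametinib present, 0 of 13 mitochondrial genes were called in YAPKO2 against sgCON (limma, 0 also at an unadjusted p under 0.05), where 17.9% of all genes were called higher and 18.3% lower. In YAPKO1, 7 fell and 0 rose, where 7.9% were called higher and 7.01% lower. MT-ATP6 stood at 199, 239 and 194 FPKM in YAPKO2 and at 114, 143 and 139 in YAPKO1, against 227, 252 and 190 in sgCON, all with trametinib. The YAPKO1 values lay below every sgCON value (-0.75 ± 0.14, adjusted p = 0.00157), and the YAPKO2 values spanned about the same range as sgCON (-0.08 ± 0.14).

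The others that fell in YAPKO1 with trametinib were MT-ATP8 (-0.94 ± 0.26, limma adjusted p = 0.0223), MT-CO1 (-0.70 ± 0.18, 0.0124), MT-ND4L (-0.65 ± 0.15, 0.0071), MT-CYB (-0.55 ± 0.15, 0.0193), MT-ND4 (-0.53 ± 0.16, 0.0274) and MT-ND2 (-0.52 ± 0.16, 0.0333). The 6 not called ran from -0.47 (MT-ND1) to -0.16 (MT-CO3). In YAPKO2 the 13 values ran from -0.32 (MT-ATP8) to 0.30 (MT-ND3), with a median of -0.09, which was 0.10 after the GC and length correction. The YAPKO1 calls of MT-ATP6 and MT-ND4L held without any 1 library, but MT-ND4L, MT-ATP8, MT-ND2 and MT-ND4 were not called after the GC and length correction (values of -0.48, -0.61, -0.33 and -0.41, adjusted p 0.0988, 0.113, 0.284 and 0.126). Without sgCON replicate 2 the calls of MT-ATP8, MT-CO1, MT-CYB, MT-ND2 and MT-ND4 were lost as well; without sgCON replicate 1, those of MT-CO1, MT-CYB, MT-ND2 and MT-ND4; without YAPKO1 replicate 1, those of MT-ATP8, MT-CYB, MT-ND2 and MT-ND4; without YAPKO1 replicate 2, those of MT-CYB and MT-ND2; and without YAPKO1 replicate 3, that of MT-ND4 (adjusted p 0.0581 to 0.146 over all of these).

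Nuclear members were more often higher than lower in the knockout lines. In DMSO, 17 of 60 rose and 2 fell in YAPKO2 (28.3% and 3.33%, beside 14.2% and 12.9% of all genes). In YAPKO1 8 rose and 0 fell (13.3% and 0%, beside 6.32% and 5.7%). The medians were 0.27 in YAPKO2 and 0.16 in YAPKO1. Most of the rises were in complex I (14 of 37 members in YAPKO2 and 7 of 37 in YAPKO1). Complex III had 1 rise of 9 in each line (11.1%). Complex IV had 1 of 10 in YAPKO2 (10%) and 0 of 10 in YAPKO1, with 0 falls in either complex. In YAPKO2 the shares of complexes III and IV that rose were below that of all genes, and 2 of 37 complex I members fell.

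NDUFC1, a small accessory subunit of complex I, stood at 92.1, 123 and 101 FPKM in YAPKO2 and at 85.2, 83.4 and 117 in YAPKO1, against 59.0, 59.6 and 57.2 in sgCON. The 3 sgCON values were close together and all below both knockout lines (log2 changes 0.83 ± 0.16 and 0.68 ± 0.16, limma adjusted p = 0.000858 in YAPKO2 and 0.00811 in YAPKO1). NDUFS7, a core subunit that carries an iron-sulfur cluster, stood at 86.1, 112 and 91.5 in YAPKO2 and at 66.3, 77.9 and 102 in YAPKO1, against 59.6, 49.9 and 58.1 in sgCON. These groups did not overlap either (0.78 ± 0.17 and 0.53 ± 0.17, adjusted p = 0.00274 in YAPKO2 and 0.049 in YAPKO1). The accessory subunit NDUFB11 changed by 0.68 ± 0.18 in YAPKO2 and 0.58 ± 0.18 in YAPKO1 (adjusted p = 0.00894 and 0.0414).

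Of the further largest changes in YAPKO1 in DMSO, the accessory subunit NDUFA9 rose by 0.62 ± 0.17 and NDUFV3, a subunit of the NADH-binding module, by 0.54 ± 0.16 (limma adjusted p = 0.0201 and 0.0306). In YAPKO2 those 2 genes rose by 0.57 ± 0.17 and 0.68 ± 0.16 (adjusted p = 0.0174 and 0.00373). The YAPKO1 calls of NDUFS7, NDUFV3 and NDUFB11 were lost without sgCON replicate 1, 2 or 3 or YAPKO1 replicate 2 or 3 (adjusted p 0.0716 to 0.239), and that of NDUFA9 without sgCON replicate 2 or YAPKO1 replicate 2 or 3 (0.0621 to 0.0985). That of NDUFC1 held without any 1 library. In YAPKO2 the call of NDUFB11 was lost without YAPKO2 replicate 2 (0.0593).

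The complex II membrane anchor SDHC rose in YAPKO2 at both treatments. SDHC stood at 110, 128 and 123 FPKM in YAPKO2 in DMSO, against 65.1, 67.2 and 71.0 in sgCON in DMSO, and at 115, 139 and 85.5 in YAPKO2 with trametinib, against 64.5, 60.3 and 66.0 in sgCON with trametinib. Every YAPKO2 library was above every sgCON library (0.82 ± 0.15 in DMSO and 0.80 ± 0.15 in trametinib, limma adjusted p = 0.00073 and 0.000593), and both calls held under all alternatives. YAPKO1 had 0.35 ± 0.15 for SDHC in DMSO, which was not called; the lines were not tested against each other. The other complex II subunits were not called in DMSO: SDHA had 0.11 ± 0.13 in YAPKO2 and -0.09 ± 0.13 in YAPKO1, SDHB 0.14 ± 0.10 and 0.06 ± 0.10, and SDHD -0.22 ± 0.15 and 0.03 ± 0.15.

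**Figure D3:**
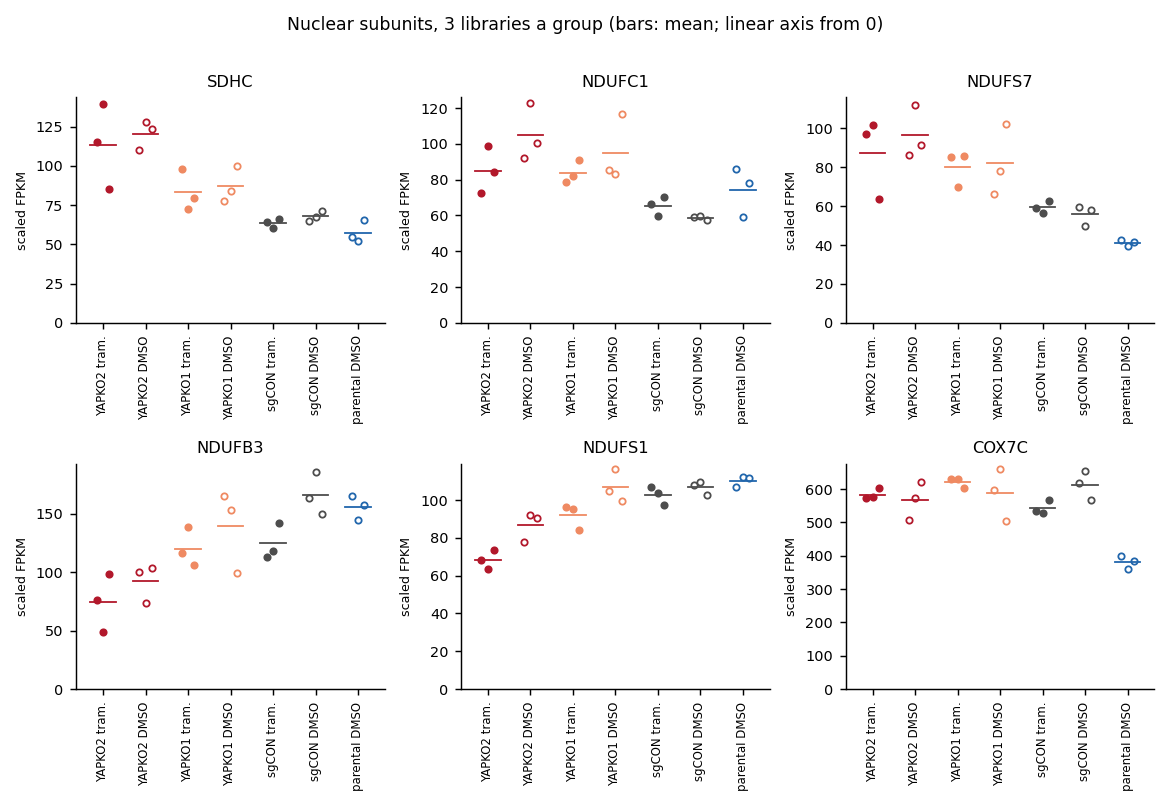
Scaled FPKM (y axis, linear from 0) of 6 nuclear subunits by group (x axis); each point is 1 library, filled for trametinib and open for DMSO, and each bar is the mean of 3. For SDHC every YAPKO2 library (85.5 to 139) lies above every sgCON library (60.3 to 71.0), NDUFB3 lies lower in YAPKO2, and COX7C is lowest in parental cells (360 to 400).

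NDUFB3, an accessory subunit of complex I, was the lowest of the nuclear members called in YAPKO2. It stood at 101, 73.9 and 104 FPKM in YAPKO2 in DMSO, against 163, 186 and 149 in sgCON in DMSO, and at 76.6, 48.9 and 98.5 in YAPKO2 with trametinib, against 113, 118 and 142 in sgCON with trametinib. The groups did not overlap (-0.85 ± 0.22 and -0.78 ± 0.22, limma adjusted p = 0.00924 in DMSO and 0.0106 in trametinib), and the calls were lost without YAPKO2 DMSO replicate 2 (0.0593) or YAPKO2 trametinib replicate 2 (0.0732). NDUFS1, the largest core subunit of complex I, fell by 0.30 in DMSO and 0.59 in trametinib (-0.30 ± 0.09 and -0.59 ± 0.09, adjusted p = 0.0182 and 7.25e-05). After the GC and length correction NDUFB3 had -0.52 in DMSO and -0.41 in trametinib (limma adjusted p = 0.00191 and 0.0073), and NDUFS1 had -0.05 and -0.32 (0.744 and 0.0236). The NDUFS1 call in DMSO was also lost without sgCON replicate 1 or 2 or YAPKO2 replicate 1 (0.0561 to 0.0853).

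With trametinib, 12 of 60 nuclear members rose and 5 fell in YAPKO2 against sgCON (20% and 8.33%). These are near the shares of 17.9% and 18.3% of all genes for rises only. In YAPKO1 2 rose and 0 fell (3.33% and 0%), both below the shares of 7.9% and 7.01% of all genes. Besides SDHC, those that rose in YAPKO2 included NDUFS7 (0.53 ± 0.17, limma adjusted p = 0.0217), the complex III core protein UQCRC2 (0.52 ± 0.15, 0.0112) and NDUFB11 (0.49 ± 0.18, 0.039). Besides NDUFB3 and NDUFS1, those that fell were the complex II anchor SDHD (-0.48 ± 0.15, 0.0197), NDUFS5 (-0.32 ± 0.10, 0.0132) and UQCRQ, a small complex III subunit (-0.32 ± 0.11, 0.0298). In YAPKO1 the complex I accessory subunits NDUFB9 (0.48 ± 0.13, 0.0184) and NDUFV3 (0.47 ± 0.16, 0.0492) rose.

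After the GC and length correction the YAPKO2 values were 0.21 for NDUFB11, which was no longer called (limma adjusted p = 0.0961), 0.25 for NDUFS7 (0.0167) and 0.78 for UQCRC2 (0.000288). The call of NDUFS1 in YAPKO2 held without any 1 library. Calls lost in YAPKO2 were those of NDUFS7, UQCRC2, UQCRQ and NDUFB11 without sgCON replicate 1, of NDUFS7 and NDUFB11 without sgCON replicate 2, of SDHD, NDUFS5, UQCRQ and NDUFB11 without sgCON replicate 3, of NDUFS7, SDHD, NDUFS5 and NDUFB11 without YAPKO2 replicate 1, of NDUFS7, SDHD, UQCRQ and NDUFB11 without YAPKO2 replicate 2, and of UQCRQ without YAPKO2 replicate 3 (limma adjusted p 0.0515 to 0.208). In YAPKO1, NDUFB9 and NDUFV3 were lost without sgCON replicate 1 or 2 or YAPKO1 replicate 1 or 3, and NDUFV3 also without sgCON replicate 3 (0.0522 to 0.189).

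The genes around SDHC, on chromosome 1 with its start at 161314257 (GRCh38, GENCODE v29), and around NDUFB3 were examined; both were picked with their values in view. In YAPKO2 against sgCON in DMSO, 29 of the 36 other protein-coding genes tested within 2 Mb of SDHC had changes above 0, 17 were called higher and 1 lower, and their median log2 change was 0.55. With trametinib 24 were called higher and 1 lower (median 0.68). In YAPKO1 against sgCON in DMSO 4 were called higher and 0 lower (median 0.09). NDUFB3, on chromosome 2 with its start at 201071433, had 31 such neighbours. In YAPKO2 0 of these were called higher and 17 lower in DMSO (median -0.66), and 0 higher and 16 lower with trametinib (median -0.57). In YAPKO1 in DMSO 1 was called higher and 3 lower (median -0.17).

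The medians over all protein-coding genes tested were 0.11 for chromosome 1 and -0.27 for chromosome 2 in YAPKO2 against sgCON in DMSO. The changes of SDHC and NDUFB3 in YAPKO2 therefore had the sign of the median of their neighbours. Neighbours of NDUFC1 on chromosome 4 did not share its direction (16 genes, 1 called higher and 2 lower, median -0.22), and those of NDUFS7 on chromosome 19 had a median of 0.35 (85 genes, 24 called higher and 2 lower). The medians of neighbours and chromosomes are without the GC and length correction. In YAPKO2 against sgCON in DMSO the change rose with GC content (Spearman rho 0.496 over 12192 protein-coding genes). DNA copy number and regional regulation were not measured. The part of these and of GC content in the medians was not tested.

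**Figure D4:**
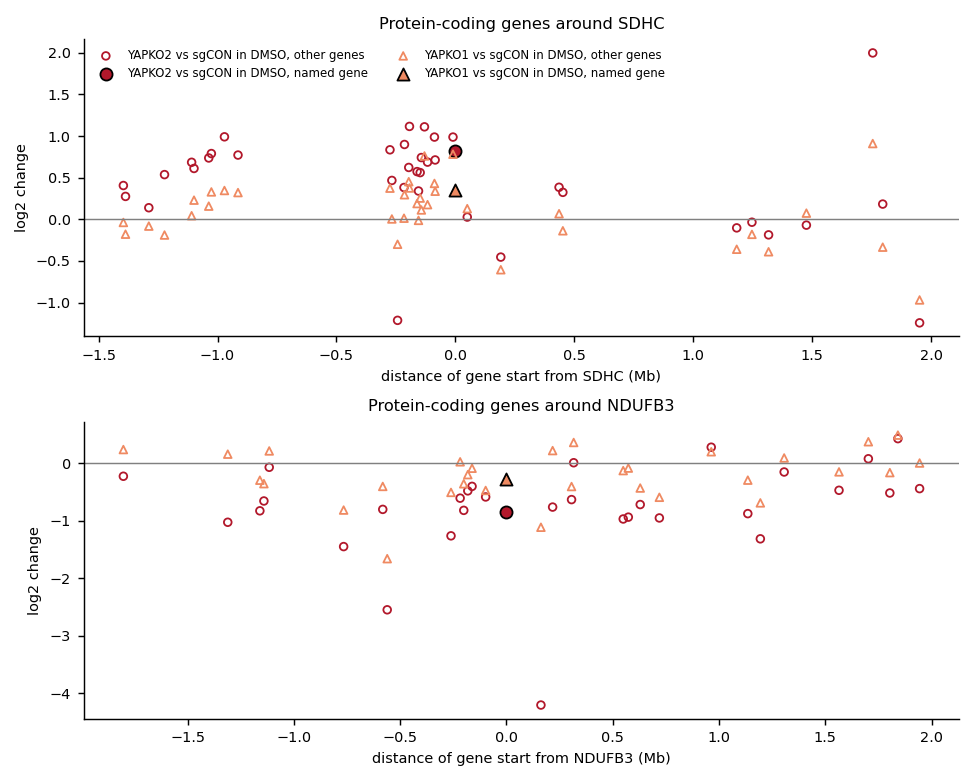
Log2 change in DMSO (y axis) of protein-coding genes tested within 2 Mb of SDHC (top) and NDUFB3 (bottom), against the distance of each gene's start from that of the named gene in Mb (x axis); circles are YAPKO2 against sgCON, triangles YAPKO1 against sgCON, and the large filled symbols at 0 are SDHC and NDUFB3 themselves. In YAPKO2 17 of the 36 other genes around SDHC were called higher and 17 of the 31 around NDUFB3 lower.

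The promoters of nuclear members were searched for short letter strings, on both strands, in the 300 bases from 250 before to 50 after the start in RefSeq's table (GRCh38.p14), which held 50 of the 60 tested nuclear members. The strings were searched separately, with overlaps allowed. The core of the nuclear respiratory factor 1 motif, GCGCATGC, was in 9 of 50 promoters (18%) and in 3.05% of all 35116 promoters. The ETS family string CCGGAAG was in 14 (28%) and in 10.3% of all, the YY1 string AAGATGGC in 8 (16%) and in 2.89% of all, and the TEAD string GGAATG, for the factors that YAP1 binds, in 4 (8%) and in 14% of all. NDUFS7 (chr19:1383657-1383956, plus strand), NDUFA9 (chr12:4648864-4649163, plus strand) and NDUFC1 (chr4:139302502-139302801, minus strand) were called higher in each knockout line in DMSO and are printed as examples with and without the strings. NDUFC1 holds none of the 4 strings, nor do NDUFB11, NDUFV3 and NDUFB8, which were also called higher in each line. Capitals mark the nuclear respiratory factor 1 string (on the reverse strand, first in NDUFS7) and the YY1 string. A match to such letters is not evidence of binding.
NDUFS7 promoter: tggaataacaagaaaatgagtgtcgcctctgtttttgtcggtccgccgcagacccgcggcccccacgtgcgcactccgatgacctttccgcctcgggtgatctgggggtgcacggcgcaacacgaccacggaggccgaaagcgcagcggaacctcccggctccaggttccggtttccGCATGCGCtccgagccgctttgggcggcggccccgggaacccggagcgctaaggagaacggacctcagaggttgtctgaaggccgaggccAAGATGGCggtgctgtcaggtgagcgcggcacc
NDUFA9 promoter: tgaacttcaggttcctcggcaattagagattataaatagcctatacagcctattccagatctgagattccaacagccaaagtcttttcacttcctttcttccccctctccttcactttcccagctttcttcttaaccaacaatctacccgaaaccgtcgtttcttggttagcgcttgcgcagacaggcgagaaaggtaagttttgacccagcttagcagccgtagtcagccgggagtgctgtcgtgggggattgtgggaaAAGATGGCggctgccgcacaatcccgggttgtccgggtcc
NDUFC1 promoter: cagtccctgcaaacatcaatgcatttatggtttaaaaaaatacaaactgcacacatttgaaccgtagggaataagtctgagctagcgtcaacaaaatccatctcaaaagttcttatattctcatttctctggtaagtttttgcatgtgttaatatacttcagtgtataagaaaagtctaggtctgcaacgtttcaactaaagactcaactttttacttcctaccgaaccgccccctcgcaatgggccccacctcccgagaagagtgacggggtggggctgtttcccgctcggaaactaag

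Trametinib against DMSO asks how each line responds to MEK inhibition. In the main fit respiratory chain genes were called in YAPKO2 only, the line with the most calls among all genes. Which lines had calls depended on the fit. Other fits called members in sgCON and YAPKO1, and the fit with only the groups compared called no member in YAPKO2. In sgCON 0 of 73 mitochondrial and nuclear members were called by limma, where 2.3% of all genes were called higher and 2.87% lower. At an unadjusted p under 0.05 there were 1 mitochondrial and 5 nuclear members. In YAPKO1 0 were called as well, where 4.08% of all genes were higher and 3.79% lower, and 0 mitochondrial and 4 nuclear members had an unadjusted p under 0.05. In YAPKO2 4 of 13 mitochondrial genes rose (30.8%) and 9 of 60 nuclear members fell (15%), where 8.88% of all genes were higher and 11.1% lower. Over all 74 members tested, 5.41% were higher, below the share of all genes, and 12.2% lower, near that share.

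The 4 that rose in YAPKO2 with trametinib encode core subunits of complex IV and ATP synthase. MT-CO2 stood at 1502, 1653 and 1289 FPKM with trametinib, against 1230, 868 and 918 with DMSO, and MT-CO1 at 1328, 1572 and 1095, against 1124, 752 and 824. The MT-CO2 groups did not overlap and those of MT-CO1 did (log2 changes 0.57 ± 0.15 and 0.57 ± 0.18, limma adjusted p = 0.0109 and 0.0309). MT-ATP6 and MT-CO3 rose by 0.53 ± 0.14 and 0.48 ± 0.13 (adjusted p = 0.0136 and 0.0169). The other 9 ran from 0.05 (MT-ND1) to 0.67 (MT-ATP8), all above 0.

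Each of these calls was lost without YAPKO2 DMSO replicate 2, and further without YAPKO2 trametinib replicate 2 (MT-ATP6, MT-CO1, MT-CO3), YAPKO2 DMSO replicate 3 (MT-CO1, MT-CO2, MT-CO3) or YAPKO2 trametinib replicate 1 (MT-CO1), with adjusted p from 0.0515 to 0.128. With the groups of YAPKO2 alone in the fit, 0 members were called. In sgCON and YAPKO1 the median of the 13 was 0.17 and 0.20, with 12 of 13 values above 0 in each line.

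The largest falls among nuclear members in YAPKO2 with trametinib were NDUFB6 (-0.45 ± 0.10, limma adjusted p = 0.00484), UQCRQ (-0.40 ± 0.11, 0.0159), NDUFA6 (-0.38 ± 0.11, 0.0188), COX5A (-0.38 ± 0.13, 0.0435) and NDUFS6 (-0.38 ± 0.12, 0.0379); NDUFB6, NDUFA6 and NDUFS6 are accessory subunits of complex I. All 4 complex II subunits had values below 0 with trametinib in each line, from -0.37 (SDHD in YAPKO2) to -0.07 (SDHC in YAPKO1). NDUFB6 stood at 46.9, 58.1 and 53.0 FPKM with trametinib, against 62.0, 77.2 and 77.5 with DMSO. Its groups did not overlap, and its value was -0.29 (adjusted p = 0.277) after the GC and length correction. SDHB fell by 0.33 (-0.33 ± 0.10, adjusted p = 0.0336; 0.197 after that correction). Without YAPKO2 DMSO replicate 2 or 3 the calls of UQCRQ, NDUFA6, COX5A, NDUFS6 and SDHB were lost, without trametinib replicate 1 those of NDUFA6, COX5A, NDUFS6 and SDHB, without trametinib replicate 3 those of COX5A, NDUFS6 and SDHB, without trametinib replicate 2 that of UQCRQ and without DMSO replicate 1 that of COX5A (adjusted p 0.0523 to 0.157).

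The test of whether the response differed from that of sgCON called 0 of 73 members for YAPKO1 (limma, 0 also at an unadjusted p under 0.05), where 0.198% of all genes were called higher and 0.0494% lower. For YAPKO2 it called 1 of 73, NDUFA6, where 1.84% were higher and 2.99% lower. NDUFA6 stood at 72.9, 81.8 and 68.8 FPKM in YAPKO2 with trametinib and 86.6, 102 and 103 in YAPKO2 with DMSO, and at 88.3, 84.4 and 98.3 in sgCON with trametinib and 82.1, 83.4 and 73.4 in sgCON with DMSO. The difference of the responses was -0.56 ± 0.15 (adjusted p = 0.0428), and it was no longer called without any of 10 of the 12 libraries (0.0569 to 0.116; YAPKO2 DMSO replicate 1 and trametinib replicate 2 were the exceptions). For the mitochondrial genes the median difference for YAPKO2 was 0.23, from -0.33 (MT-ND1) to 0.52 (MT-ATP8), with 0 called and 2 at an unadjusted p under 0.05.

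**Figure D5:**
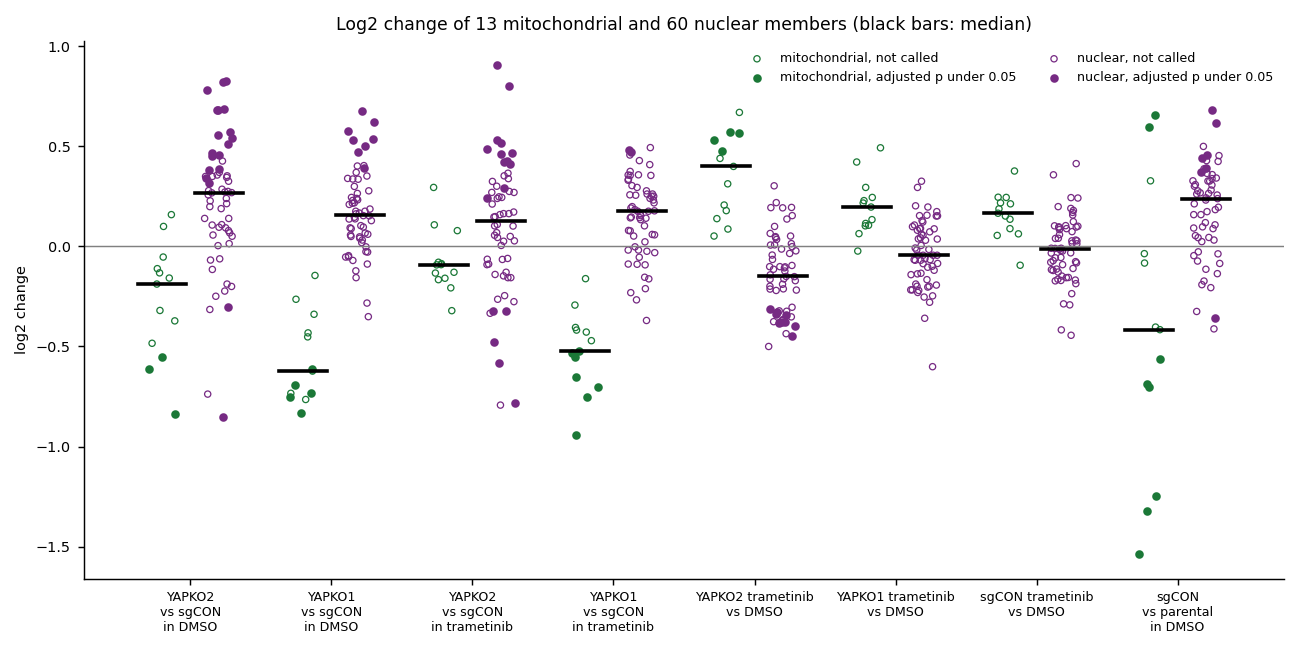
Log2 change (y axis) of the 13 mitochondrial (left of each pair) and 60 nuclear members (right) in 8 comparisons (x axis); filled points have an adjusted p under 0.05 and black bars are medians. The mitochondrial median lies below the nuclear one in the 4 comparisons with sgCON and in sgCON against parental cells, and above it in the 3 comparisons of trametinib with DMSO.

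The contrast between the 2 genomes can be read within each library as the median deviation of the mitochondrial genes from their means over libraries minus that of the nuclear members, on the log2 scale. In DMSO it was 0.04, -0.64 and -0.49 in YAPKO2 and -0.40, -0.79 and -0.73 in YAPKO1, against -0.03, 0.12 and 0.43 in sgCON. Every YAPKO1 library was below every sgCON library, while YAPKO2 replicate 1 lay within the sgCON range. Parental cells had 0.82, 0.87 and 0.80, above all 18 other libraries. With trametinib it was 0.07, 0.14 and 0.16 in YAPKO2, -0.67, -0.29 and -0.28 in YAPKO1 and 0.42, 0.55 and -0.09 in sgCON.

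As the difference of median log2 changes, mitochondrial minus nuclear, the contrast was -0.65 for sgCON against parental cells, -0.46 for YAPKO2 and -0.78 for YAPKO1 against sgCON in DMSO, and -0.22 and -0.70 in trametinib. It was 0.55 for trametinib against DMSO in YAPKO2, 0.24 in YAPKO1 and 0.18 in sgCON. The spread of the library values within groups was 0.24 (pooled SD), and the values for trametinib in sgCON and YAPKO1 and for YAPKO2 against sgCON in trametinib were of that size or smaller. The YAPKO2 value in trametinib was 0.02 after the GC and length correction.

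The contrast differed between complexes, as a description. For sgCON against parental cells the median change was -0.70 for the 7 mitochondrial complex I genes and 0.20 for the 37 nuclear ones, and 0.33 for the 3 mitochondrial complex IV genes and 0.38 for the 10 nuclear ones. For YAPKO1 against sgCON in DMSO these medians were -0.62 and 0.18 for complex I, and -0.43 and 0.16 for complex IV. For YAPKO2 they were -0.11 and 0.28 for complex I, and -0.37 and 0.24 for complex IV.

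Complex IV members with tissue-restricted forms were at or near 0. COX6A2 and COX7A1 (muscle forms), COX7B2 and COX8C (germ-line forms) were not tested: COX6A2, COX7B2 and COX8C were listed at 0 in all 21 libraries and COX7A1 was at most 0.329 FPKM. COX6B2 was tested at 0.305 to 1.15 FPKM, and was not called in any comparison. Of the 11 pseudogene members, 9 were listed at 0 in all libraries, UQCRBP1 was at most 1.12 and UQCRFS1P1, at 0.326 to 1.38, was tested and not called in any comparison. UQCRFS1P1 may share reads with UQCRFS1. NDUFA4, counted here with complex I by its name, is known as a subunit of complex IV.

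Genes that build or feed the chain were read from lists of related genes. Their calls come from the main fit only, so how far they depend on the correction or on 1 library is not known. Of 16 nuclear ATP synthase genes, 4 rose and 0 fell in YAPKO2 and 1 rose and 0 fell in YAPKO1 against sgCON in DMSO (25% higher beside 14.2% of all genes, and 6.25% beside 6.32%; medians 0.16 and 0.10). ATP5F1B, the catalytic beta subunit, rose by 0.70 ± 0.16 and ATP5F1A, the alpha subunit, named for comparison with YAPKO1, by 0.35 ± 0.09 in YAPKO2 (limma adjusted p = 0.0045 and 0.00808), and ATP5F1A by 0.30 ± 0.09 in YAPKO1 (0.0369). The 7 chain subunits that the symbol patterns leave out include cytochrome c, CYCS, the carrier between complexes III and IV. CYCS stood at 103, 73.2 and 152 FPKM in YAPKO2 with trametinib, against 225, 186 and 206 with DMSO. Its change was -0.97 ± 0.20 (limma adjusted p = 0.00255), and in YAPKO1 it was -0.73 ± 0.20 (0.0343). Of the 6 tested genes of this list, trametinib raised 1 and lowered 2 in YAPKO2 (16.7% and 33.3%, beside 8.88% and 11.1% of all genes). In YAPKO1 0 rose and 1 fell (0% and 16.7%, beside 4.08% and 3.79%). In sgCON 0 were called, with changes from -0.46 to 0.12. The test for a response different from that of sgCON called 0 of the 6 in either knockout line.

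Of 42 assembly factors, 0 rose and 4 fell in sgCON, 0 rose and 6 fell in YAPKO1, and 3 rose and 11 fell in YAPKO2 with trametinib against DMSO, with medians of -0.12, -0.09 and -0.19. As shares, 0% rose and 9.52% fell in sgCON (2.3% and 2.87% of all genes), 0% and 14.3% in YAPKO1 (4.08% and 3.79%) and 7.14% and 26.2% in YAPKO2 (8.88% and 11.1%). COX17, the copper chaperone of complex IV, stood at 55.3, 61.6 and 64.4 FPKM in sgCON with trametinib, against 104, 106 and 100 with DMSO. In YAPKO1 it stood at 45.4, 52.8 and 49.9 with trametinib, against 79.6, 85.2 and 71.3 with DMSO, and in YAPKO2 at 41.1, 45.3 and 48.2, against 69.5, 75.1 and 83.8. The trametinib libraries were below the DMSO libraries in each line (-0.77 ± 0.10, -0.67 ± 0.10 and -0.76 ± 0.10, limma adjusted p = 6.89e-05 in sgCON, 0.000211 in YAPKO1 and 2.4e-05 in YAPKO2). COA6, which also serves copper delivery to complex IV, changed by -0.63 ± 0.11, -0.63 ± 0.11 and -0.95 ± 0.11 (adjusted p = 0.00192, 0.00137 and 1.13e-05 in the same order of lines).

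Of 26 genes for mitochondrial DNA maintenance, transcription and RNA processing, 1 rose and 5 fell in YAPKO2 and 2 rose and 2 fell in YAPKO1 against sgCON in DMSO. These are 3.85% and 19.2% in YAPKO2, beside 14.2% and 12.9% of all genes, and 7.69% each way in YAPKO1, near the 6.32% and 5.7% of all genes. SLIRP, which stabilizes mitochondrial messenger RNA, rose in both lines. Its change was 0.76 ± 0.10 in YAPKO2 and 0.78 ± 0.10 in YAPKO1 (limma adjusted p = 3.53e-05 and 4.85e-05). On chromosome 14, where SLIRP lies, the median over 403 protein-coding genes tested was -0.03 in YAPKO2 and 0.22 in YAPKO1 against sgCON in DMSO. It was -0.305 in sgCON against parental cells. A link of SLIRP with these medians was not tested. MTERF1, the termination factor, and FASTKD2, an RNA-binding protein, fell in YAPKO2 (-1.37 ± 0.44 and -1.09 ± 0.26, adjusted p = 0.0299 and 0.00533). With trametinib SLIRP was also higher than in sgCON, by 0.49 ± 0.10 in YAPKO2 and 0.79 ± 0.10 in YAPKO1 (adjusted p = 0.00127 and 3.73e-05). In sgCON against parental cells 2 rose and 1 fell (7.69% and 3.85%, beside 7.82% and 7.96% of all genes): TFB1M 0.55 ± 0.13, SSBP1 0.30 ± 0.09 and SLIRP -0.49 ± 0.10 (adjusted p = 0.00815, 0.0268 and 0.00329). Of 8 tested nuclear regulators, 2 rose and 0 fell (25% and 0%) in that comparison, MYCN by 1.58 ± 0.12 and ESRRA by 0.63 ± 0.14 (adjusted p = 1.84e-07 and 0.00602).

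The mitochondrial ribosomal RNAs MT-RNR1 and MT-RNR2 may have been removed in part with the ribosomal RNA, so their levels are uncertain. MT-RNR2 stood at 388, 481 and 265 FPKM in YAPKO2 with trametinib, against 170, 201 and 169 with DMSO, and was called (1.03 ± 0.24, limma adjusted p = 0.0057). All 22 mitochondrial transfer RNAs were listed at 0. Of 386 nuclear pseudogene copies of mitochondrial genes, 293 were listed at 0 and 7 were tested. MTCO1P12, a near copy of MT-CO1, stood at 32.2 to 87.5 FPKM, so some reads of MT-CO1 may be counted there or the reverse.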

How the data were processed

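RNA from 21 libraries of NLF cells was prepared with a stranded total RNA kit after ribosomal RNA removal, per the labels' protocols. Reads were handled with STAR 2.4.2, RSEM 1.3.0 and hg19, per the submitters' processing notes; how strand was set in counting is not given in the sources used here. The authors deposited FPKM per gene, uncalibrated and calibrated. The calibrated table equals the uncalibrated one times 1 factor per library (0.927 to 1.07, largest relative deviation 5.11e-15).

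The uncalibrated FPKM were kept where at least 1 in at least 3 libraries (16194 of 57820 rows), scaled by median ratios, and tested as log2(FPKM + 0.5) with limma 3.58.1 in R 4.3.3 (empirical Bayes with trend, 1 fit over all 21 libraries, Benjamini-Hochberg over all genes). Fold changes on this scale understate changes of low genes. FPKM hold no counts, so no count model was used. GC content and length came from GENCODE v29 (GRCh38) for 15615 tested genes (96.4%), including all 74 tested members. The fit was tested on simulated data.

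The members, gene lists and alternatives were chosen with earlier results of these data known. The genes named in each comparison are the mitochondrial members, up to 5 called nuclear members with the highest and up to 5 with the lowest change, the complex II subunits, the tissue-restricted forms and up to 3 called genes of each related list. Values of NDUFA9 and NDUFV3 in YAPKO2 in DMSO, ATP5F1A in YAPKO2, COX17 in YAPKO2 with trametinib and the neighbours were picked with their results in view. So were those of SLIRP in YAPKO2 and with trametinib. The parental columns are headed only DMSO with a replicate number, and were assigned because the columns of all other samples carry a line's name. The labels give DMSO as 0.01% for samples, and the series text gives 0.1%. Replicate numbers did not pair the samples: 0 of 21 pairs of groups had all 3 same-number correlations over 0.1. Results of a few genes are not reported here.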

Additional observations from a re-analysis of the deposited data

Results flagged for a closer look

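NDUFA6, an accessory subunit of complex I, was the member whose trametinib response differed between lines by a test of the difference itself. The response in YAPKO2 minus that in sgCON was -0.562 on the log2 scale (limma adjusted p = 0.0428): NDUFA6 changed by -0.38 with trametinib in YAPKO2 and by 0.18 in sgCON. The call was lost under 14 of 21 alternatives (largest adjusted p 0.116), and after the GC and length correction the value was -0.53 (adjusted p = 0.0245).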

How the results depend on the processing

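The alternatives were run for named chain members and not for the genes of the related lists. No called change of a member that was run reversed sign. Values that were not called did, among them mitochondrial genes in YAPKO2 against sgCON in trametinib with the GC and length correction (MT-ND4 -0.21 and 0.04 with it). Pseudocounts of 0.1 and 1 moved 1 and 0 of 213 results across the threshold. Leaving out 1 library weakened 131 and strengthened 14 of 1500. Counts of members called moved as follows; the cause was not tested. Trametinib against DMSO in sgCON gave 0, but 7 with only the groups compared in the fit, 2 with the GC and length correction and 1 with that correction and the replicate block. In YAPKO1 it gave 0, but 3 and 2 with those corrections, 4 without the pair of libraries of high GC trend (YAPKO2 trametinib replicate 2 and YAPKO1 DMSO replicate 3, an alternative chosen after seeing the data) and 0 to 2 without 1 library. In YAPKO2 it gave 13, but 0 with only the groups compared, 22 with the GC and length correction and 2 to 16 without 1 library. YAPKO1 against sgCON in DMSO gave 13, but 8 with no filter, 4 with only the groups compared and 6 to 18 without 1 library; YAPKO2 in DMSO gave 22, and 8 to 25 without 1 library. In trametinib YAPKO1 gave 9, but 17 with only the groups compared and 2 to 13 without 1 library, and YAPKO2 gave 17, but 11 with no filter, 4 with only the groups compared and 8 to 32 without 1 library. The response difference of YAPKO2 gave 1, but 0 with no filter, with the calibrated values, with only the groups compared or with the replicate block, 4 with the GC and length correction, 3 with the block added, 3 without the pair of libraries and 0 to 2 without 1 library. In sgCON against parental cells 15 became 40 with only the groups compared, 29 with the GC and length correction and 25 with the block added. The mitochondrial minus nuclear median of YAPKO2 against sgCON in trametinib was -0.22, but 0.02 with the GC and length correction, with or without the replicate block.

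The replicate numbers do not pair the samples (same-number correlations as low as -0.547); with the replicate block the counts of members called were 10 for trametinib in YAPKO2, 9 and 19 for YAPKO1 and YAPKO2 against sgCON in DMSO, 7 and 14 in trametinib, and 14 for sgCON against parental cells. Depth is unknown from FPKM, so no counting interval can be given.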
